A study of Mus musculus with 18 samples.

Results

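The genes described here encode the 3 large enzyme families of phase II conjugation, the glutathione S-transferases (GST, with the membrane-bound Mgst enzymes), the UDP-glucuronosyltransferases (UGT) and the sulfotransferases (SULT). They were chosen by gene symbol alone (Gsta, Gstk, Gstm, Gsto, Gstp, Gstt, Gstz, Mgst, Ugt1, Ugt2 and Sult), which gave 64 of the 19057 genes in the liver RNA-seq table, 25 GST, 18 UGT and 21 SULT genes. The table held 18 liver libraries of 10-week-old ICR mice, 3 in each of 6 groups, and each value was given as RPKM, a read count scaled by gene length and sequencing output. Con mice were the controls, which per the methods of the study were males on the regular diet that received saline. HS mice were fed the high-fat diet and injected with STZ, a toxin that kills pancreatic beta cells, to model type 2 diabetes. A10 mice received alginate oligosaccharide (AOS), a product of brown algae, at 10 mg/kg, and HS+A10 mice received the high-fat diet, STZ and the same dose of AOS. Both groups are known from the sample labels alone, which give neither the sex of the mice nor the length of dosing. A10-FMT and Con-FMT mice were HS mice that received a fecal microbiota transplant from AOS-dosed donors or from control donors, and this donor material was pooled. The labels do not say that the 3 libraries of a group came from separate mice, so the p-values measure the spread between these samples, which may in part be technical.

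Conjugation makes reactive or fat-soluble molecules more water-soluble so that they can leave the hepatocyte in bile or blood. GST enzymes join glutathione to electrophiles such as products of lipid peroxidation, UGT enzymes transfer glucuronic acid from UDP-glucuronate to bilirubin, steroids, phenols and many drugs, and SULT enzymes transfer sulfate from PAPS to phenols, steroids, thyroid hormones and bile acids. In liver these genes are known targets of the receptors CAR and PXR and of the stress-responsive factor NRF2, and several differ between male and female mice.

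Some libraries stood apart, and their values bear on the results that follow. Con replicate 3 held intermediate values at 95.3% of the 858 genes for which Con replicates 1 and 2 were more than 0.5 apart on the log2 scale, and for 13 of 13 such members, at a median position of 0.497 of the way between them. A10 replicate 3 was intermediate in the same way for 93.6% of 577 genes and for 12 of 12 members. In the other 4 groups the share for any library was 52.7% to 72.6%. Pancreatic acinar markers summed to 17700 RPKM in Con-FMT replicate 3 and to 14.1 to 49.8 RPKM in the other 17 libraries. Erythroid markers summed to 2890 to 10000 RPKM in HS and to 1260 to 1970 RPKM in Con. The 6 hepatocyte markers found summed to 31700 to 54600 RPKM over all libraries, so the defining markers of the labelled tissue were present. The counts of members called are also given without Con replicate 3 and A10 replicate 3, or without Con-FMT replicate 3, where their groups are compared. All 18 libraries entered the shared estimate of the spread, so these libraries bear on every adjusted p. The comparisons of other groups were not refitted without them, and how far their calls depend on these libraries was not tested.

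All 3 families were present in liver, but a few genes carried most of their RNA. Of the 64 members, 42 averaged 1 RPKM or more across the 18 libraries and were tested, 22 of the 25 GST genes, 13 of the 18 UGT genes and 7 of the 21 SULT genes. The members nearest to that limit were Sult2a7 (1.35 RPKM) and Ugt2b37 (1.57 RPKM) inside it and Ugt1a10 (0.586 RPKM) and Gsto2 (0.443 RPKM) outside it. Of the 22 members left untested, 4 SULT genes were listed at 0 in all libraries (Sult1c1, Sult2a3, Sult2a4 and Sult2a6). The GST genes with the highest mean levels were Gstp1 (4800 RPKM), the pi-class enzyme known to be the most abundant GST of male mouse liver, Mgst1 (3360 RPKM), a membrane-bound GST, and Gstm1 (1190 RPKM), a mu-class enzyme. Among UGT genes these were Ugt2b5 (563 RPKM), Ugt2b36 (396 RPKM) and Ugt2b1 (272 RPKM), all of the UGT2B subfamily known to act on steroids. Among SULT genes they were Sult2a8 (416 RPKM), a sulfotransferase of bile acids, Sult1a1 (186 RPKM), which acts on phenols, and Sult5a1 (37.7 RPKM).

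Summed over its 25 genes, the GST family lay at 14465 ± 460 RPKM (SD, n = 3) in Con, 12598 ± 489 in HS, 12192 ± 561 in A10, 11182 ± 376 in A10-FMT, 10206 ± 1304 in HS+A10 and 10015 ± 993 in Con-FMT. The lowest Con library (13936 RPKM) was above the highest library of every other group (12970 RPKM). With median scaling the Con libraries were again the highest (15092 RPKM or more), but with quantile normalization HS had the higher mean (13421 against 12984 RPKM in Con), so the order of Con and HS depended on the scaling. Gstp1 alone made up 52.2% of the GST sum in Con and 31.4% in HS+A10. Without Gstp1 the Con mean was 6916 ± 564 RPKM, close to HS (7002 ± 675) and HS+A10 (6918 ± 569), and A10 was the highest group (8201 ± 337). The UGT sum lay between 1775 ± 95.8 RPKM in Con-FMT and 2045 ± 179 RPKM in A10, with the ranges of neighbouring groups overlapping. The SULT sum was lowest in Con (580 ± 39.0 RPKM) and highest in A10-FMT (788 ± 23.5 RPKM), and every A10, HS, HS+A10 and A10-FMT library was above every Con library, also under median scaling and quantile normalization. Without Con replicate 3 and A10 replicate 3 the means in Con and A10 were 14351 and 12339 RPKM for GST, 1891 and 2030 RPKM for UGT and 578 and 711 RPKM for SULT, each within 1 SD of the value with them. These sums are a description, since 3 libraries against 3 cannot reach an exact p below 0.1. In bulk liver RNA, fewer cells of a type and less RNA per cell cannot be told apart.

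**Figure D1:**
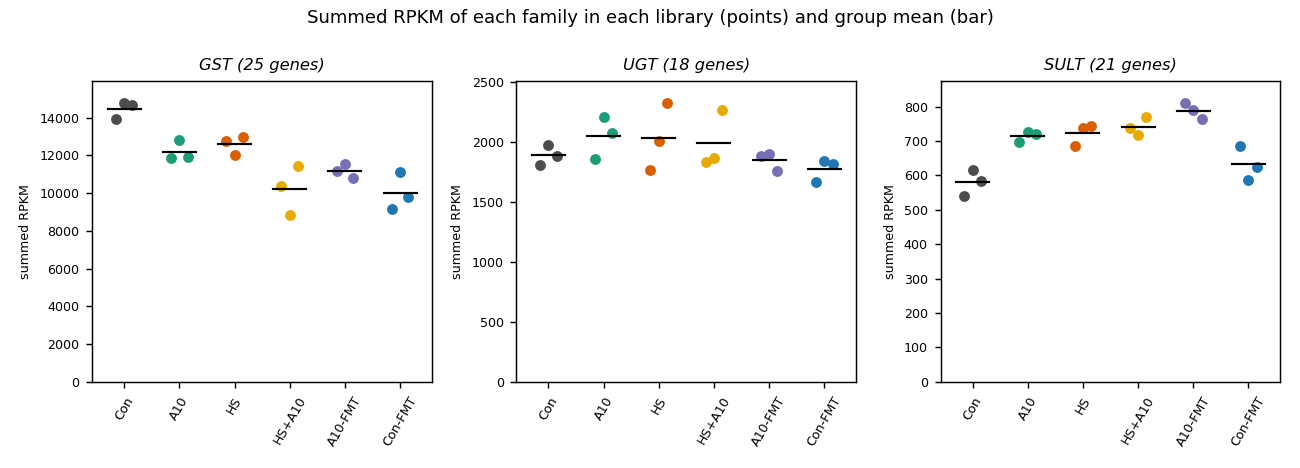
Summed RPKM of the 25 GST, 18 UGT and 21 SULT genes in each library (points), with the mean of 3 libraries as a bar and linear axes from 0. The GST panel falls from 14465 RPKM in Con to 10015 RPKM in Con-FMT, the UGT panel stays between 1775 and 2045 RPKM, and the SULT panel is lowest in Con at 580 RPKM.

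Several members are near-copies of a neighbour, which matters because reads could be assigned to either gene. Gstp1 (chromosome 19 of GRCm38, 4035407 to 4037985, minus strand) and Gstp2 (4040285 to 4046023) were identical at 98.1% of 630 coding bases, 12 bases apart, and 70.9% of the 50-base windows of Gstp1 also occurred in Gstp2. Gstp3 (4057477 to 4059569), the third gene of this cluster, was identical to Gstp1 at 73.6% of aligned bases and shared no window with any member. The stretch of coding bases 301 to 360 is shown because it holds the largest difference between the 3 genes, with capitals at positions where they are not all the same. In it Gstp2 differs from Gstp1 at 5 of 60 bases and Gstp3 at 38.
Gstp1: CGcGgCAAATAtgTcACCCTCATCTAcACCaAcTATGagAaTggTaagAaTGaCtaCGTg
Gstp2: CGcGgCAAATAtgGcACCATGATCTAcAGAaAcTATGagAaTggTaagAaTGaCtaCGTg
Gstp3: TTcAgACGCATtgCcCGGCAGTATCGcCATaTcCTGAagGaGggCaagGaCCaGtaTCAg

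The UGT1A genes are a single locus in which each gene has its own first exon and all share the rest. Here 8 Ugt1a genes shared 4 coding exon parts of 735 bases (chromosome 1 of GRCm38, 88215044 to 88218421, plus strand), so that a read from the shared part could come from any of them. The junction is shown for 4 of the genes because only reads that reach into the own first exon can tell Ugt1a5 from its neighbours. Capitals are the last 30 bases of that exon, which is longer than the stretch shown. The 30 lower-case bases that follow are common to all.
Ugt1a1: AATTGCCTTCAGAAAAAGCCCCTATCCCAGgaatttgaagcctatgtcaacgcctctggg
Ugt1a5: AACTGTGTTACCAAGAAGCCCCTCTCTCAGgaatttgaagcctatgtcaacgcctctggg
Ugt1a6b: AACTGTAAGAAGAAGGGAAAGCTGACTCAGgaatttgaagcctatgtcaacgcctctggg
Ugt1a9: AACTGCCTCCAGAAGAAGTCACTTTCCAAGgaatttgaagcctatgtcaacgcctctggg

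Other close pairs were Gsta1 and Gsta2 (98% of coding bases identical, about 50.2% of windows shared), Ugt1a6a and Ugt1a6b (98.4%), and Ugt2b5 and Ugt2b38 (97%, and 44.1% of the windows of Ugt2b38 occurred in other members). Windows found in other members, shared exons included, made up 100% for Ugt1a6a and 71.8% for Ugt1a6b. They were searched in every coding transcript annotated to another gene, and those of Ugt1a7c held 100% of the Ugt1a6a windows. The main coding sequences of Ugt1a6a and Ugt1a7c were identical at 77.4%, so the 100% is not a measure of likeness to Ugt1a6b. The share of windows found in other members was 48.9% for Ugt2b5, 32.4% for Gstm3, 21.7% for Gstm1, 21.4% for Ugt2b37 and 12.6% for Gstm6. Values of these genes are uncertain to the extent that reads were split between copies. Gsta3, Gsta4, Gstt1, Gstt2, Gstt3, Gstm4, Gstm7, Gsto1, Gstk1, Mgst1 and the 7 tested SULT genes shared no 50-base window with another member.

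Diet and STZ in mice without AOS (HS compared with Con) changed 6 of the 42 tested members at an adjusted p under 0.05 in limma, 14.3% against 17.7% of all 10204 tested genes, so that the share of members called was not above the background. Of these, 3 rose (Gstt2, Gsto1 and Sult1a1) where 15.9% of all genes rose, and 3 fell (Ugt2b38, Gstt3 and Gstm6) where 1.87% of all genes fell. Across all genes the median log2 change was 0.14, and once the libraries were scaled to the same median the split among members turned from 3 higher and 3 lower to 0 higher and 4 lower, with 0 higher and 3 lower under quantile normalization. Of all genes 3.87% were then called higher and 4.84% lower with median scaling, and 4.76% and 3.82% with quantile normalization. The 3 rises were thus lost under both scalings, while the 3 falls kept their calls under both.

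Gstt3, a theta-class GST (chromosome 10, 75774115 to 75781414), had 25.4, 23.0 and 25.2 RPKM in the Con libraries and 9.12, 12.1 and 14.8 RPKM in the HS libraries. The groups did not overlap, and the mean fell 2.04-fold (log2 change -1.0, standard error 0.27, adjusted p = 0.0214). Gstm6, a mu-class GST, had 59.8, 79.2 and 70.2 RPKM in Con and 16.5, 31.9 and 56.3 RPKM in HS (log2 change -1.13, standard error 0.342, adjusted p = 0.0345). Every HS library was below every Con library, but the HS libraries spread over more than the Con libraries did, with HS replicate 1 the lowest. Ugt2b38, a UGT2B enzyme present at a low level, had 8.93, 7.15 and 7.96 RPKM in Con and 1.71, 2.86 and 2.90 RPKM in HS, a 3.22-fold lower mean (log2 change -1.38, standard error 0.279, adjusted p = 0.00516). Its near-copy Ugt2b5, at a far higher level, had 516, 539 and 528 RPKM in Con and 556, 613 and 683 RPKM in HS and was not called (adjusted p = 0.202).

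Gstt2, the theta-class neighbour of Gstt3, went the other way, with 22.4, 31.2 and 25.6 RPKM in Con and 61.4, 31.9 and 42.5 RPKM in HS (log2 change 0.72, standard error 0.228, adjusted p = 0.0414). HS replicate 2 was only just above the highest Con library. Gsto1, an omega-class enzyme that reduces dehydroascorbate, had 88.0, 96.1 and 94.1 RPKM in Con and 116, 118 and 132 RPKM in HS (log2 change 0.39, standard error 0.109, adjusted p = 0.0244). Sult1a1, the phenol sulfotransferase, had 168, 179.8 and 181 RPKM in Con and 212, 235 and 267 RPKM in HS (log2 change 0.42, standard error 0.131, adjusted p = 0.0369). These changes were 1.31-fold to 1.72-fold, and the groups did not overlap for any of the 6 called genes, a pattern found in 36.8% of all genes and in 14 of the 42 members. Without Con replicate 3 the count fell from 6 to 1, without Con replicate 1 to 2 and without HS replicate 2 to 2. Without Con replicate 3 and A10 replicate 3 together it was also 1, and Ugt2b38 was the gene that kept its call (log2 change -1.39, adjusted p = 0.0302).

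The same diet and STZ in AOS-dosed mice (HS+A10 compared with A10) changed 14 of the 42 members, 33.3% against 20.9% of all genes, and 11 of the 14 were lower (7.28% of all genes were called lower and 13.6% higher). The 14 comprised 9 of 22 GST genes, 3 of 13 UGT genes and 2 of 7 SULT genes. The split of 3 higher and 11 lower was the same under median scaling and quantile normalization, where 11.3% and 10.8% of all genes were called lower and 12.1% and 12.7% higher, and the median log2 change of the GST genes was -0.42 against 0.04 for all genes. Without Con replicate 3 and A10 replicate 3, 9 members were called, 2 higher and 7 lower.

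The largest fall was that of Ugt1a5, a gene of the UGT1A locus (chromosome 1, 88166012 to 88218997), with 19.2, 9.02 and 12.6 RPKM in A10 and 0.54, 0.70 and 1.81 RPKM in HS+A10. The groups were far apart, and the mean was 13.4-fold lower (log2 change -2.85, standard error 0.41, adjusted p = 0.000316), where the log2 change on the RPKM + 1 scale understates the ratio because the level in HS+A10 was near 1 RPKM. The call was kept under every alternative run, including a stricter threshold of both adjusted p and fold. Ugt1a6b, which encodes a phenol UGT of the same locus, was lower by a small amount, with 105, 112 and 112 RPKM in A10 and 91.0, 97.4 and 94.1 RPKM in HS+A10 (log2 change -0.22, standard error 0.0669, adjusted p = 0.0307). Its near-copy Ugt1a6a was at 31.9, 34.9 and 32.9 RPKM in A10 and 29.0, 34.3 and 37.0 RPKM in HS+A10 and was not called (adjusted p = 0.994). Ugt2b38 was again lower, at 2.18, 5.67 and 4.49 RPKM in A10 and 1.02, 1.31 and 2.49 RPKM in HS+A10 (log2 change -0.95, standard error 0.279, adjusted p = 0.0255), here with overlapping groups because A10 replicate 1 lay below the highest HS+A10 library.

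Among GST genes, Gstt3 had 52.8, 23.4 and 33.1 RPKM in A10 and 9.46, 12.5 and 9.69 RPKM in HS+A10 (log2 change -1.63, standard error 0.27, adjusted p = 0.000844), and Gstm6 had 99.6, 87.7 and 90.8 RPKM in A10 and 21.1, 27.1 and 36.1 RPKM in HS+A10 (log2 change -1.72, standard error 0.342, adjusted p = 0.00273). Both were more than 3-fold lower in the mean, with no overlap. The alpha-class gene Gsta3 (chromosome 1, 21240589 to 21265661) had 726, 832 and 788 RPKM in A10 and 291, 309 and 399.8 RPKM in HS+A10, a 2.35-fold lower mean (log2 change -1.24, standard error 0.283, adjusted p = 0.00651). Gstm1, the most abundant mu-class gene, had 1626, 2008 and 1756 RPKM in A10 and 838, 789.9 and 1229 RPKM in HS+A10 (log2 change -0.94, standard error 0.19, adjusted p = 0.00303), and its mu-class relative Gstm7 had 61.5, 53.2 and 55.5 RPKM in A10 and 40.0, 43.0 and 33.8 RPKM in HS+A10 (log2 change -0.54, standard error 0.114, adjusted p = 0.004). The lower mu-class members lie within 1 cluster on chromosome 3. Gstm3 (-1.66, adjusted p = 0.0132) and the theta-class Gstt1 (-0.63, adjusted p = 0.00706) were called lower as well.

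Members that rose were Gstt2, Gstk1 and Sult1b1. Gstt2 had 36.3, 28.1 and 28.5 RPKM in A10 and 76.2, 60.3 and 61.7 RPKM in HS+A10, a 2.13-fold higher mean (log2 change 1.07, standard error 0.228, adjusted p = 0.00413). The kappa-class enzyme Gstk1, located in mitochondria and peroxisomes, had 213, 114 and 148 RPKM in A10 and 219.6, 326 and 224 RPKM in HS+A10 (log2 change 0.71, standard error 0.196, adjusted p = 0.0182), with A10 replicate 1 close below the lowest HS+A10 library. Sult1b1, a sulfotransferase that acts on thyroid hormones, was tight within groups, at 15.2, 14.7 and 15.5 RPKM in A10 and 34.3, 38.1 and 32.0 RPKM in HS+A10 (log2 change 1.15, standard error 0.243, adjusted p = 0.00398). Sult1a1 fell from 268, 191 and 216 RPKM in A10 to 168, 174 and 146 RPKM in HS+A10 (log2 change -0.46, standard error 0.131, adjusted p = 0.0227), the opposite of its direction in HS compared with Con.

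HS compared with Con and HS+A10 compared with A10 have no library in common, so their values can be set side by side as separate measurements that share only the estimate of the spread. For 33 of the 42 members (78.6%) the log2 changes had the same sign, against 69.9% of all genes, with 18 of 22 GST genes, 11 of 13 UGT genes and 4 of 7 SULT genes. Across the 42 members the Pearson correlation was 0.71 and the Spearman correlation 0.76, given as a description because genes are not independent replicates, against 0.68 and 0.58 across all genes. Called in both were 5 members, 4 of them in the same direction (Gstt2 higher and Ugt2b38, Gstt3 and Gstm6 lower) and Sult1a1 in opposite directions. A test of the difference between the 2 contrasts, the interaction of diet and STZ with AOS, called none of the 42 members in limma, and 1 of all genes (0.0098%, which was higher), and without Con replicate 3 and A10 replicate 3 it again called 0 members. At an unadjusted p under 0.05 there were 6, but the share of all genes at that threshold was not counted. The smallest adjusted p was that of Sult1a1 (log2 change -0.88, standard error 0.185, adjusted p = 0.113). Without HS replicate 1 the interaction was called for 2 members, Ugt1a5 (log2 change -2.40, adjusted p = 0.0164) and Sult1a1 (log2 change -0.96, adjusted p = 0.0388).

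**Figure D2:**
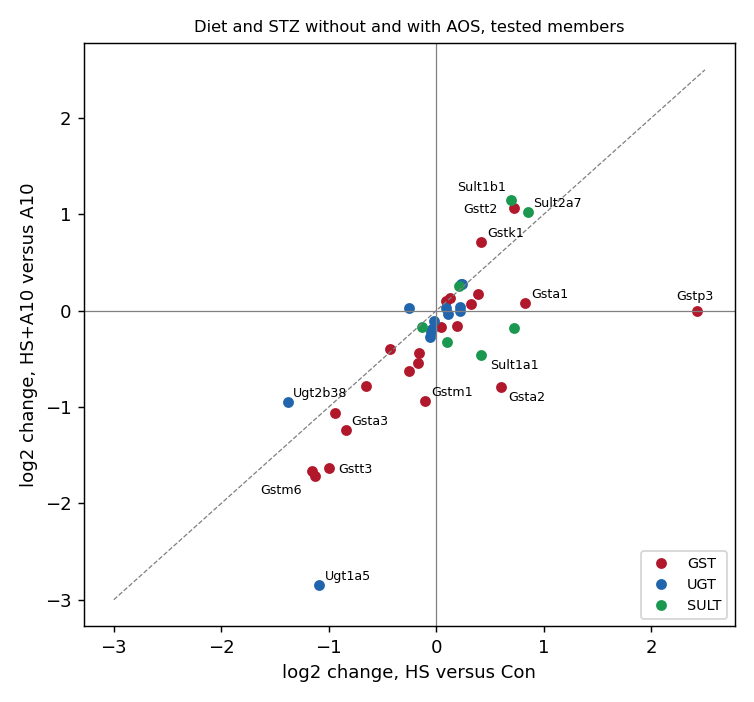
Log2 change of RPKM + 1 of the 42 tested members for HS compared with Con (horizontal axis) and HS+A10 compared with A10 (vertical axis), coloured by family, with the dashed line marking equal changes. Gstt3 and Gstm6 lie at the lower left, Gstt2 and Sult1b1 at the upper right, Ugt1a5 lies far below the line at -1.09 and -2.85, and Gstp3 stands alone at 2.43 and 0.00.

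AOS alone (A10 compared with Con) changed none of the 42 members at an adjusted p under 0.05 in limma, where 0.0686% of all genes were called (7 genes), 0.049% higher and 0.0196% lower. At an unadjusted p under 0.05 there were 12 members, but the share of all genes at that threshold was not counted. Without Con replicate 3 and A10 replicate 3 the count of calls was again 0. The smallest adjusted p was that of Gstt1, a theta-class enzyme for small halogenated compounds, with 176, 221 and 203 RPKM in Con and 389, 268 and 277 RPKM in A10 (log2 change 0.62, standard error 0.145, adjusted p = 0.116). Gstp1 (chosen by its level) was next, with 7599.7, 7303 and 7745 RPKM in Con and 3914, 4262 and 3798 RPKM in A10, a 1.89-fold lower mean (log2 change -0.92, standard error 0.271, adjusted p = 0.187). All A10 libraries were far below all Con libraries for this gene, and when only these 2 groups entered the fit it was the 1 member called (adjusted p = 0.0497). For 15 of the 42 members the groups did not overlap (35.7% against 24.8% of all genes). The A10 group had the highest mean of all 6 groups for 10 of the 22 GST genes, on the log2 scale, among them all 7 tested mu-class genes. The share of all genes that were highest in A10 was not counted. The mu-class genes lie in 1 cluster and some share sequence, so they are not separate observations.

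Gstp1 was not called in any of the 7 comparisons, yet its group levels were ordered over a wide range. It had 6072, 5519.6 and 5195 RPKM in HS, 4092, 1645 and 4127 RPKM in HS+A10, 5213, 4761 and 4952 RPKM in A10-FMT and 2441, 4458 and 3299.9 RPKM in Con-FMT. From high to low the means were 7550 RPKM in Con, 5600 RPKM in HS, then 4980 in A10-FMT, 3990 in A10, 3400 in Con-FMT and 3290 in HS+A10. The ranges of HS and A10-FMT overlapped, as did those of A10, Con-FMT and HS+A10 with each other. In HS+A10 compared with HS the change was -0.88 with adjusted p = 0.0603, and HS+A10 replicate 2 was by far the lowest library. The low-level Gstp2 had 55.0, 26.1 and 44.6 RPKM in Con, 8.27, 35.0 and 22.5 RPKM in A10, 15.9, 18.4 and 28.9 RPKM in HS and 4.55, 9.53 and 13.8 RPKM in HS+A10, and it was not called in any comparison either. Of the 50-base coding windows of Gstp1, 70.9% also occurred in Gstp2, so a read within such a window could come from either gene. Windows outside the coding sequence were not counted.

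Gstp3, described after its values had been seen, differed between libraries of the same group more than any other member, with a spread within groups of 1.90 on the log2 scale against a median of 0.33 for GST genes and 0.14 for all genes. It had 19.3, 48.3 and 38.0 RPKM in Con, 284, 35.1 and 592 RPKM in HS, 54.7, 1054 and 611 RPKM in A10, 65.6, 973 and 551 RPKM in HS+A10, 29.0, 1064 and 535 RPKM in A10-FMT and 1064, 564 and 748 RPKM in Con-FMT. All 3 Con libraries, replicate 1 of A10, HS+A10 and A10-FMT and replicate 2 of HS, 7 in all, lay at 19.3 to 65.6 RPKM. The other 11 lay at 284 to 1064 RPKM. In Con, A10, HS+A10 and A10-FMT replicate 1 was the lowest and replicate 2 the highest, but not in HS or Con-FMT. A link between this gene and the replicate number was not tested. No comparison called the gene (log2 change 3.28, standard error 1.38, adjusted p = 0.319 for A10 compared with Con, with no overlap between these groups). Its coding sequence shares no 50-base window with Gstp1 or Gstp2, and Gstp1 did not show the same split of libraries.

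**Figure D3:**
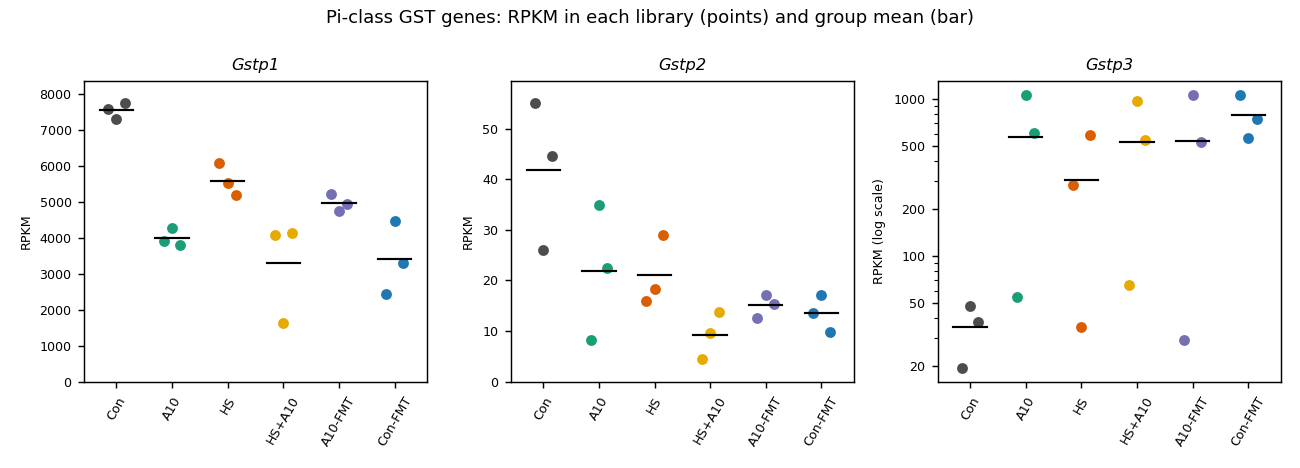
RPKM of the 3 pi-class GST genes in each library (points), with the mean of 3 libraries as a bar, on linear axes from 0 for Gstp1 and Gstp2 and on a logarithmic axis for Gstp3. Gstp1 is highest in Con at 7550 RPKM and lowest in HS+A10 at 3290 RPKM, and Gstp3 splits into 7 libraries of at most 65.6 RPKM and 11 of at least 284 RPKM.

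AOS in mice with diet and STZ (HS+A10 compared with HS) changed 1 of the 42 members, 2.38% against 7.32% of all genes, and that member was lower, as were 4.37% of all genes. It was Sult1a1, which had 212, 235 and 267 RPKM in HS and 168, 174 and 146 RPKM in HS+A10 (log2 change -0.55, standard error 0.131, adjusted p = 0.0237). The groups did not overlap, and the HS+A10 libraries overlapped the range of Con. At an unadjusted p under 0.05 there were 9 members, and 4 of them were SULT genes, but the share of all genes was not counted. Sult1b1, which had 16.8, 17.6 and 26.3 RPKM in HS, was at adjusted p = 0.0621 and Sult2a8, with 409, 374 and 361 RPKM in HS and 462, 451 and 538 RPKM in HS+A10, at adjusted p = 0.0747. Under median scaling both of these were called higher, which gave 2 higher and 1 lower, and under quantile normalization Sult1b1 was, which gave 1 higher and 1 lower. HS replicate 1 decided much of this comparison. It had the lowest HS value for Gsta3 (249.6, 570.3 and 669.5 RPKM in the HS libraries), Gstm2 (23.0, 65.6 and 105 RPKM), Gstm3 (19.7, 44.3 and 78.4 RPKM) and Ugt1a5 (0.45, 3.81 and 5.41 RPKM), genes picked after their values had been seen. Without it 6 members were called, Ugt1a5 (log2 change -1.51), Gsta3 (-0.90), Sult5a1 (-0.91) and Gstm1 (-0.69) lower and Gstt2 (0.82) higher, beside Sult1a1. Without HS replicate 2, HS replicate 3 or HS+A10 replicate 1 the count was 0, and without HS+A10 replicate 3 it was 3.

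In recipients of microbiota from AOS-dosed donors (A10-FMT compared with HS), 10 of the 42 members were called, 23.8% against 23.1% of all genes, 8 lower and 2 higher (21% of all genes were called lower and 2.09% higher). Of the lower members 7 were GST genes and 1 was Sult1a1, both higher members were SULT genes, and none of the 13 UGT genes was called on the values as deposited. At an unadjusted p under 0.05, where the share of all genes was not counted, there was 1 UGT gene, Ugt1a6b. All genes together had a median log2 change of -0.16, and with median scaling the split became 4 higher and 4 lower, with quantile normalization 3 higher and 5 lower. Of all genes 6.19% were called higher and 4.89% lower with median scaling, and 5.62% and 5.3% with quantile normalization. The higher members then included a UGT gene, Ugt1a6b, called with median scaling (log2 change 0.33, adjusted p = 0.012) and with quantile normalization (0.28, adjusted p = 0.0396). Without HS replicate 3 the count was 6, and without A10-FMT replicate 3 it was also 6. In recipients of microbiota from control donors (Con-FMT compared with HS), 15 of the 42 members were called, 35.7% against 23.6% of all genes, 12 lower and 3 higher (19% of all genes were called lower and 4.61% higher). They were 8 GST genes, all lower, 6 UGT genes, 3 lower and 3 higher, and Sult1a1. Here the median change of all genes was -0.12, and the split was 4 higher and 9 lower with median scaling and 3 higher and 10 lower with quantile normalization, where 8.3% and 8.1% of all genes were called higher and 11.3% and 10.1% lower. Both comparisons use the same HS libraries, so their values are given side by side and are not separate evidence.

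Gsta2, an alpha-class GST that acts on lipid peroxides (chromosome 9, 78331018 to 78355788), had 27.2, 34.0 and 83.4 RPKM in HS, 10.1, 8.85 and 10.2 RPKM in A10-FMT and 7.84, 6.25 and 11.96 RPKM in Con-FMT. Every recipient library was below every HS library, and the mean was 4.96-fold lower in A10-FMT (log2 change -2.03, standard error 0.392, adjusted p = 0.00315) and 5.55-fold lower in Con-FMT (log2 change -2.22, standard error 0.392, adjusted p = 0.00124). Its near-copy Gsta1 was at a lower level, with 3.03, 5.75 and 8.54 RPKM in HS, 1.05, 0.50 and 1.34 RPKM in A10-FMT and 0.42, 3.10 and 1.13 RPKM in Con-FMT (log2 changes -1.72, adjusted p = 0.0044 in A10-FMT, and -1.46, adjusted p = 0.00833 in Con-FMT). Con-FMT replicate 2 overlapped HS for this gene. Gsta4, which acts on the lipid peroxidation product 4-hydroxynonenal, had 123, 83.1 and 109 RPKM in HS, 71.9, 73.0 and 63.8 RPKM in A10-FMT and 70.5, 67.3 and 65.6 RPKM in Con-FMT (log2 changes -0.57, adjusted p = 0.0166, and -0.61, adjusted p = 0.0108). Recipients of both kinds were below HS, but with median scaling the call of Gsta4 in A10-FMT was lost.

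Gstm4 showed the smallest adjusted p of the mu-class genes, with 41.6, 42.0 and 50.6 RPKM in HS, 29.0, 21.8 and 21.9 RPKM in A10-FMT and 23.6, 25.2 and 21.6 RPKM in Con-FMT (log2 change -0.87, standard error 0.138, adjusted p = 0.00111 in A10-FMT, and log2 change -0.90, standard error 0.138, adjusted p = 0.000474 in Con-FMT). The groups did not overlap, and the share of all genes without overlap was 37.4% for A10-FMT against HS, 35% for Con-FMT against HS, and both calls were kept under all alternatives run except the stricter threshold. Gstm1 had 1021, 1250.4 and 1804 RPKM in HS, 828, 818 and 707 RPKM in A10-FMT and 778, 833 and 885 RPKM in Con-FMT (log2 changes -0.75, adjusted p = 0.0122, and -0.67, adjusted p = 0.0191). Gsto1, higher in HS than in Con, had 97.8, 102 and 79.0 RPKM in A10-FMT and 80.9, 82.8 and 92.4 RPKM in Con-FMT (log2 changes -0.39, adjusted p = 0.019, and -0.51, adjusted p = 0.00405), and Sult1a1 had 146, 144 and 154 RPKM in A10-FMT and 188, 137 and 175 RPKM in Con-FMT (log2 changes -0.68, adjusted p = 0.00315, and -0.52, adjusted p = 0.0108). For both genes the recipient libraries lay below all HS libraries. Under median scaling and quantile normalization the calls of Gstm1 and Gsto1 in A10-FMT were lost, and the call of Gstm3 in A10-FMT (-1.27, adjusted p = 0.045) was lost under both as well.

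Gstt3, already lower in HS than in Con, was lower still in Con-FMT, with 2.06, 2.95 and 5.06 RPKM, a 3.57-fold lower mean than in HS (log2 change -1.61, standard error 0.27, adjusted p = 0.000864). In A10-FMT it had 5.69, 6.10 and 8.72 RPKM and was not called against HS (adjusted p = 0.0625). Over all 6 groups its means ran from 36.4 RPKM in A10 to 3.36 RPKM in Con-FMT, the widest range of any GST gene after Gstp3, at 3.08 on the log2 scale. Other members called lower in Con-FMT were Gstm5 (-0.49, adjusted p = 0.0239), Ugt1a9 (-0.61, adjusted p = 0.0121), Ugt2b5 (-0.39, adjusted p = 0.0286) and Ugt2b35 (-0.47, adjusted p = 0.0497). Ugt2b5, the most abundant UGT gene, had 467, 489 and 454 RPKM in Con-FMT, all below the HS libraries. The calls of Gstm5, Ugt2b5 and Ugt2b35 were lost with median scaling.

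The UGT genes that rose in Con-FMT compared with HS were Ugt2b37, Ugt2b38 and Ugt1a6b. Ugt2b37, near the lower limit of the tested genes, had 0.68, 1.28 and 0.88 RPKM in HS and 4.95, 8.08 and 1.80 RPKM in Con-FMT, a 5.22-fold higher mean (log2 change 1.46, standard error 0.307, adjusted p = 0.00365). It was low in all 5 other groups, at 0.35 to 1.83 RPKM. Group means there were 0.627 to 1.33 RPKM, against 4.94 RPKM in Con-FMT. The gene thus passed the filter only through Con-FMT, the group in which it was called higher. The call was kept with no filter and lost when only the 2 compared groups entered the fit. Its relative Ugt2b38 had 7.99, 4.98 and 3.51 RPKM in Con-FMT (log2 change 0.86, standard error 0.279, adjusted p = 0.0365), between HS and Con. Ugt1a6b rose by a small amount, with 97.0, 104 and 104 RPKM in HS and 115, 126 and 126 RPKM in Con-FMT (log2 change 0.26, standard error 0.0669, adjusted p = 0.011). Without Con-FMT replicate 3, the library with the pancreatic acinar markers, 12 members were called in Con-FMT compared with HS, 3 higher and 9 lower, and the 3 lost calls were Gstm5, Ugt2b5 and Ugt2b35.

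The SULT genes that rose in A10-FMT compared with HS were Sult2a8 and Sult1c2. Sult2a8, the bile acid sulfotransferase and the most abundant SULT gene (chromosome 7, 14410686 to 14446769), had 409, 374 and 361 RPKM in HS, 546, 538 and 494 RPKM in A10-FMT and 407, 369 and 344 RPKM in Con-FMT. The A10-FMT libraries were above both other groups (log2 change 0.46, standard error 0.112, adjusted p = 0.00977 against HS). Sult1c2 had 1.09, 1.93 and 1.26 RPKM in HS, 3.93, 3.48 and 3.19 RPKM in A10-FMT and 1.56, 2.24 and 1.14 RPKM in Con-FMT, a 2.48-fold higher mean in A10-FMT than in HS (log2 change 0.91, standard error 0.189, adjusted p = 0.00459), at a level of a few RPKM.

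The 2 kinds of recipients were compared directly. Donor material was pooled for each kind, so the donors' AOS dosing cannot be told apart from other differences between the 2 pools. In A10-FMT compared with Con-FMT 5 of the 42 members were called, 11.9% against 18.8% of all genes, 4 higher (6.72% of all genes) and 1 lower (12% of all genes). The background depended on the scaling, with 13% of all genes higher and 9.25% lower under median scaling and 11.2% and 9.52% under quantile normalization, where the members split into 5 higher and 1 lower. SULT genes made up 3 of the 4 higher members. Besides Sult2a8 (log2 change 0.50, standard error 0.112, adjusted p = 0.00672) and Sult1c2 (log2 change 0.79, standard error 0.189, adjusted p = 0.00923), Sult5a1 had 52.0, 41.1 and 61.7 RPKM in A10-FMT and 26.7, 17.8 and 25.9 RPKM in Con-FMT (log2 change 1.11, standard error 0.336, adjusted p = 0.0322). The groups did not overlap for any of these 3 genes, a pattern of 31.5% of all genes, but Sult5a1 also ran from 19.8 to 57.1 RPKM within HS. The fourth higher member was Gstt3 (log2 change 0.89, standard error 0.27, adjusted p = 0.0324), and the lower member was Ugt2b37, with 1.24, 0.53 and 1.04 RPKM in A10-FMT (log2 change -1.48, standard error 0.307, adjusted p = 0.00406). Ugt2b37 was among the tested genes only through its level in Con-FMT. Without Con-FMT replicate 3 the call of Sult5a1 was lost and 4 members were called, and without A10-FMT replicate 3 or Con-FMT replicate 2 there were 3. None of the other 21 GST genes was called on the values as deposited, with log2 changes from -1.57 for Gstp3 to 0.61 for Mgst3. Mgst3 was called higher with median scaling (0.68, adjusted p = 0.0448) and with quantile normalization (0.70, adjusted p = 0.0411).

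**Figure D4:**
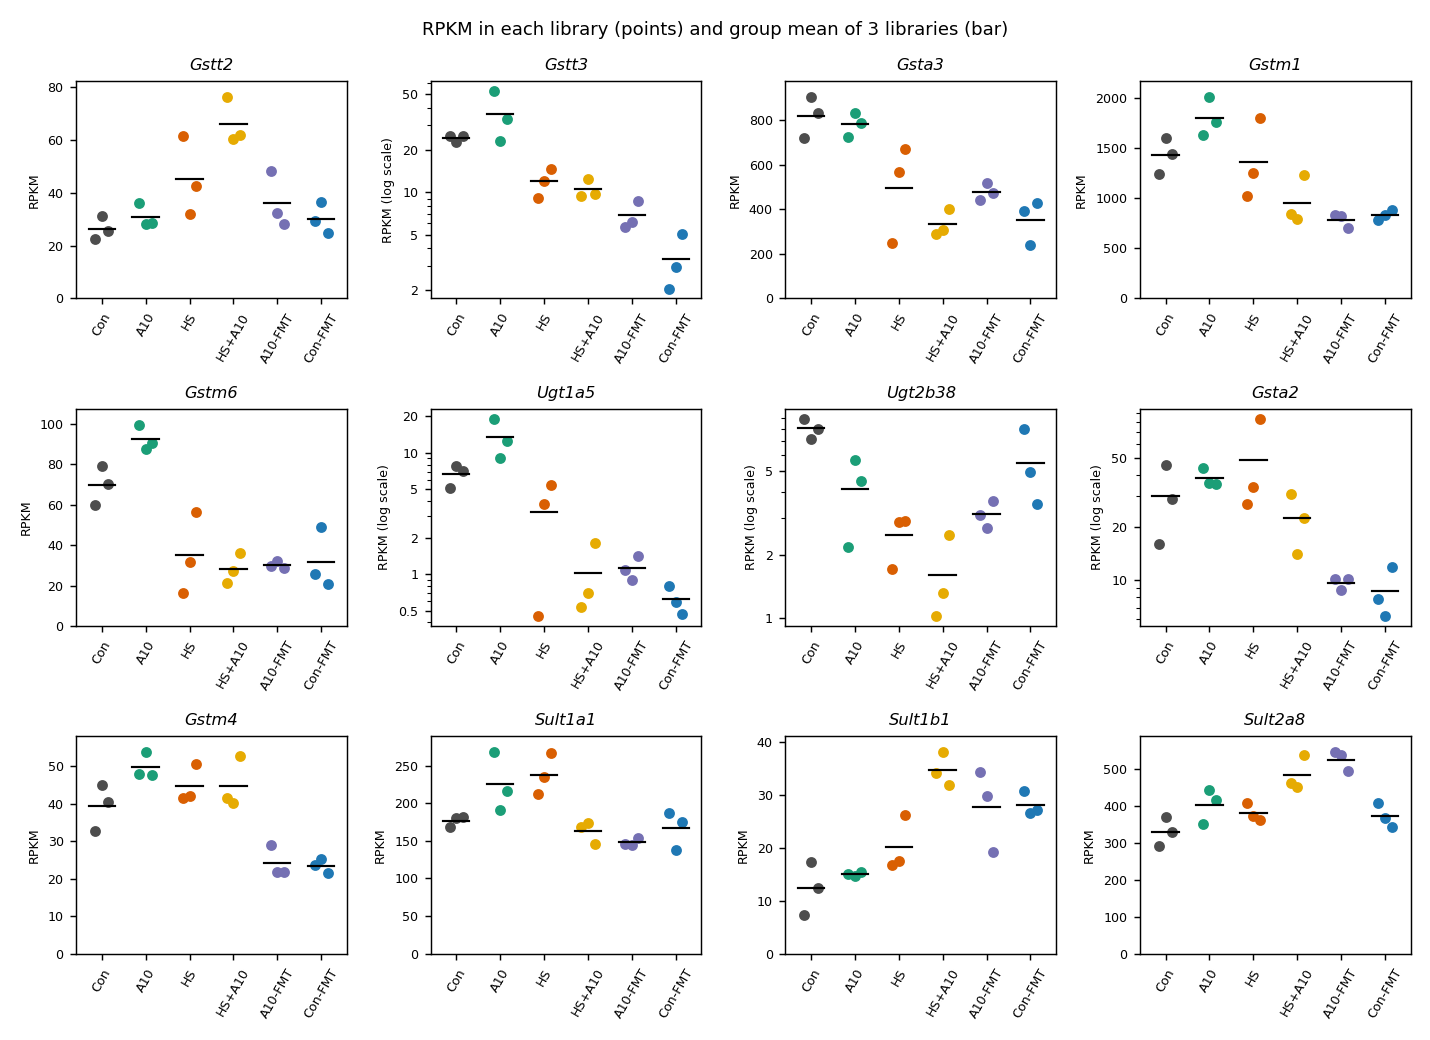
RPKM of 12 called members in each library (points), with the mean of 3 libraries as a bar, on linear axes from 0 except for Gstt3, Ugt1a5, Ugt2b38 and Gsta2, which have logarithmic axes. Gstt3, Gsta3 and Gstm6 are high in Con and A10 and low in the 4 groups with diet and STZ, Gsta2 and Gstm4 are low in A10-FMT and Con-FMT, and Sult2a8 is highest in A10-FMT at 526 RPKM.

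The 3 families differed in how far their members varied. The group means of a GST gene spanned a median of 1.24 on the log2 scale, those of a SULT gene 0.91, those of a UGT gene 0.46 and those of all tested genes 0.42. The range was over 1 for 15 of 22 GST genes (68.2%), 3 of 7 SULT genes (42.9%) and 4 of 13 UGT genes (30.8%), against 11% of all genes. The spread between libraries of a group was also larger, with a median of 0.33 for GST and SULT genes and 0.21 for UGT genes, against 0.14 for all genes. In all, 27 members were called in at least 1 of the 7 comparisons, 15 of 22 GST, 7 of 13 UGT and 5 of 7 SULT genes, against 56.1% of all tested genes, and 15 were called in none. Among those 15 were Mgst1, whose libraries all lay between 2951 and 3832 RPKM, Gstz1, the maleylacetoacetate isomerase of tyrosine breakdown, Ugt1a1, the bilirubin UGT, at 48.1 to 121 RPKM, and the abundant Ugt2b36 and Ugt2b1. Con-FMT was the lowest group for 9 of the 22 GST genes and Con the lowest for 4 of the 7 SULT genes. The same shares over all genes were not counted.

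**Figure D5:**
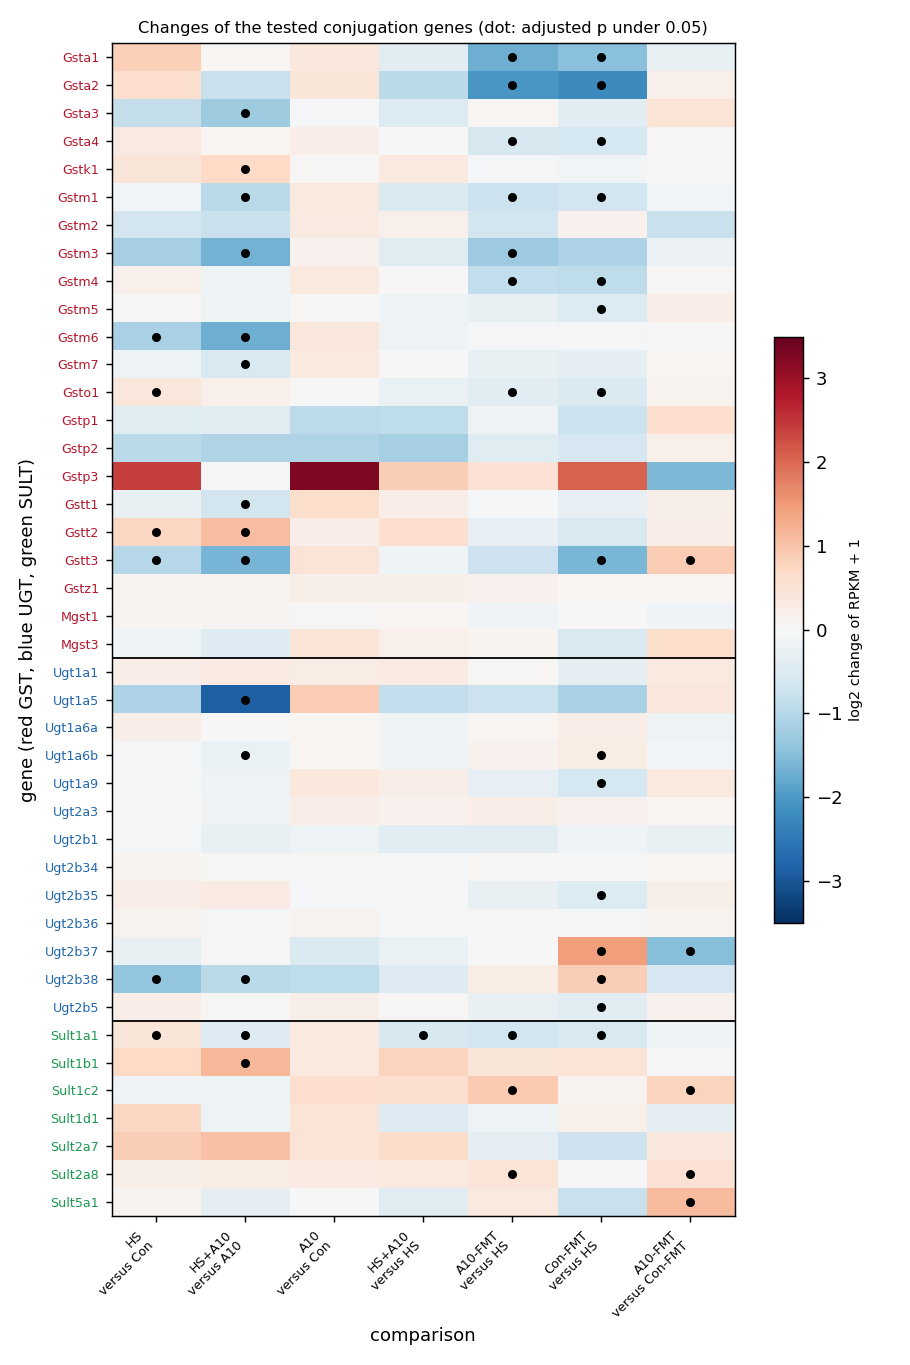
Log2 change of RPKM + 1 (colour, from -3.5 in blue to 3.5 in red) of the 42 tested members (rows, GST above, UGT in the middle, SULT below) in 7 comparisons (columns), with a dot where the adjusted p was under 0.05. Among GST genes the columns with most dots are HS+A10 compared with A10 (9 of 22) and both recipient groups compared with HS (7 and 8 of 22), among UGT genes Con-FMT compared with HS (6 of 13), and the column of A10 compared with Con holds none.

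Genes that supply the cosubstrates were taken from lists written from general knowledge. In HS compared with Con, 3 of 10 tested genes of glutathione supply rose and 0 fell, Cbs of the transsulfuration pathway (0.73, adjusted p = 0.00807), Oplah, which recycles 5-oxoproline (0.61, adjusted p = 0.023), and the glutathione synthetase Gss (0.38, adjusted p = 0.031). Against HS, 5 of the 10 fell in A10-FMT recipients, whereas 4 fell and 1 rose in Con-FMT recipients, with Cbs and Gss among those that fell in both. Those falls stand beside 21% and 19% of all genes lower, and with median scaling 3 genes fell and 1 rose in A10-FMT and 2 fell and 1 rose in Con-FMT. Of 7 genes of UDP-glucuronate supply, 1 rose in HS, Ugp2, which makes UDP-glucose (0.76, adjusted p = 0.00174), and of 8 genes of PAPS supply and sulfate handling, 2 rose, the sulfite oxidase Suox (0.48, adjusted p = 0.0124) and Impad1 (0.38, adjusted p = 0.0329). Among 6 tested exporters of conjugates, 3 rose in HS, Abcg2 (0.63, adjusted p = 0.00652), the bile canalicular Abcc2 (0.72, adjusted p = 0.00809) and the basolateral Abcc3 (1.07, adjusted p = 0.0236). The same 3 exporters were called higher in HS+A10 compared with A10, and against HS none of the 6 was called in either recipient group as deposited, while 2 were called higher in A10-FMT with median scaling. The rises in HS stand beside a median change of 0.14 for all genes, and with median scaling 1 gene of glutathione supply, 1 of PAPS supply, 1 of UDP-glucuronate supply and all 3 exporters were called higher.

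Of 16 other conjugation enzymes, 4 rose and 1 fell in HS. The risen genes were the epoxide hydrolase Ephx1, at 397 RPKM against 223 RPKM (0.84, adjusted p = 0.00401), the thiopurine methyltransferase Tpmt (0.90, adjusted p = 0.00609), Nqo1 (0.75, adjusted p = 0.00565) and Ugt3a2 (0.36, adjusted p = 0.00475), and the fallen gene was Nat8, which acetylates cysteine conjugates on the way from glutathione conjugates to mercapturic acids, at 4.63 RPKM against 22.1 RPKM (-2.06, adjusted p = 0.00306). Among 18 regulators, 3 rose in HS, Nfe2l2, which encodes NRF2, at 43 RPKM against 24.7 RPKM (0.78, adjusted p = 0.000397), Rxra (0.35, adjusted p = 0.00521) and Nr1i2, which encodes PXR (0.31, adjusted p = 0.0434), but with median scaling 1 regulator was higher and 1 lower. Of 10 NRF2 targets outside the 3 families 4 rose in HS (Ephx1, Nqo1, Srxn1 and Txnrd1, the first 2 also counted above), while against HS 6 of the 10 fell in A10-FMT recipients and 4 in Con-FMT recipients. With median scaling 2 NRF2 targets were called higher in HS, 4 lower in A10-FMT, and 2 lower and 1 higher in Con-FMT. Of 9 CAR and PXR targets outside the families, 2 rose in HS, Cyp2c37 (1.93, adjusted p = 0.00136) and Por (1.02, adjusted p = 0.0262), and 1 fell, Cyp2c29 (-2.16, adjusted p = 0.0175). Genes biased to male liver were also counted, because several conjugation genes are sex-biased. Of 11 tested, 3 fell in HS (Cyp4a12a, C4a and Hsd3b5) and 0 rose, and of 6 female-biased genes 1 rose, Cyp3a44 (2.26, adjusted p = 0.00144). With median scaling the counts in HS were 3 higher and 1 lower for the other conjugation enzymes, 1 and 1 for CAR and PXR targets, 3 male-biased genes lower and 1 female-biased gene higher. In A10 compared with Con none of the genes in these lists was called, as deposited or with median scaling.

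Markers of other cells and of liver zones moved with some of these results, and their part in them was not tested. Pericentral hepatocyte markers summed to 2420 to 3270 RPKM in Con, 3220 to 3370 in A10, 4190 to 4860 in HS, 6420 to 7160 in HS+A10, 5880 to 6070 in Con-FMT and 6510 to 7140 in A10-FMT, and 4 of 7 rose in HS compared with Con (Oat, Cyp2e1, Glul and Slc1a2, with Oat at 458 RPKM against 78.1 RPKM). The higher sums in recipients were not shared by most pericentral markers. Against HS, 1 of 7 was called higher and 1 lower in A10-FMT (median log2 change -0.16). In Con-FMT 1 was called higher and 3 lower (median -0.27), or 1 and 2 with median scaling. The same 4 markers that rose in HS rose in HS+A10 compared with A10, where endothelial markers had 4 of 6 higher, stellate cell markers 3 of 7 higher and periportal markers 1 of 7 lower. Periportal markers had 0 of 7 called in HS compared with Con and 3 of 7 lower in each recipient group compared with HS. Among Kupffer cell markers 4 of 7 were lower in A10-FMT than in HS, with sums of 30 to 39.7 RPKM against 45.6 to 79.3 RPKM. Hba-a1, an erythroid marker, rose in HS (1.71, adjusted p = 0.0309), while stellate cell markers had 2 of 7 higher (Dcn and Reln), endothelial markers 1 of 6, hepatocyte markers 1 higher and 1 lower of 6, and Kupffer cell and cholangiocyte markers 0 of 7 and 0 of 3. No lymphocyte marker passed the filter. Erythroid markers had 3 of 4 lower in Con-FMT than in HS, with a median log2 change of -3.36, and 1 of 4 lower in A10-FMT. With median scaling the counts in HS fell to 2 pericentral, 1 stellate, 0 endothelial and 0 erythroid markers higher, the Kupffer count in A10-FMT to 1, and the periportal counts to 2 for Con-FMT and 1 for A10-FMT recipients, while 1 cholangiocyte and 1 hepatocyte marker were lower in HS and 2 periportal markers lower in HS+A10. The pericentral, endothelial and stellate counts in HS+A10 and the erythroid counts in recipients were the same with it. Pancreatic acinar markers were called in no comparison although 1 Con-FMT library held them.

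Promoters were read from RefSeq entries on GRCm38.p6, which covered 57 of the 64 members, for 2 motifs in either strand of the 250 bases before each start. The core of the antioxidant response element, TGACNNNGC, to which NRF2 is known to bind, occurred in 4 of 69 member entries (5.8%) against 10.2% of 32851 entries, at Gsta3, Gstm5, Gstm7 and Mgst1. The AP-1 motif TGACTCA, which overlaps the other motif where GC follows it, occurred in 8 member entries (11.6%) against 4.46%. These were Gstm5, the near-copies Gstp1 and Gstp2, Ugt2b37, Mgst2, Sult1c1, Sult2b1 and Ugt2a2. Of them Mgst2, Sult1c1, Sult2b1 and Ugt2a2 were below the filter and not tested. Windows are shown for Gsta3 (chr1:21240439-21240497, plus strand) and Ugt2b37 (chr5:87254937-87254993, minus strand), with the motif in capitals, because the former fell in HS+A10 compared with A10 and the latter differed between the recipient groups. A match describes letters only and says nothing of binding in these livers.
Gsta3: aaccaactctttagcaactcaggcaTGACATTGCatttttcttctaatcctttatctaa
Ugt2b37: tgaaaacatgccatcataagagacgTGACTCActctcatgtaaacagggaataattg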

How the data were processed

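RNA-seq of liver was measured in 18 libraries, 3 in each of 6 groups, and 1 table of RPKM values for 19057 genes was used. Per the methods of the study, the authors enriched poly(A) RNA with oligo(dT), mapped the reads with SOAPaligner to reference genes, and gene levels were deposited as RPKM. The submitters' processing notes instead name Bowtie 0.12.2 and the build mm10, so the aligner is uncertain. The stated SOAPaligner settings include an option for reporting repeat hits, but how reads matching several genes entered the RPKM values, and whether strand was used, is not given in the sources used here. The number of reads is not known. Steps between low RPKM values gave a relative depth of 0.958 to 1.05 over the libraries.

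Groups were taken from the labels. RPKM was tested as log2(RPKM + 1) with limma 3.58.1 in R 4.3.3, with 1 mean per group, all 18 libraries, a trend in the prior variance and Benjamini-Hochberg adjustment over the 10204 genes that averaged 1 RPKM or more, and called at an adjusted p under 0.05. The limma fit was tested on simulated data. A log2 change on this scale understates the change of low genes. As alternatives, the pseudocount was 0.1, the filter was dropped or raised to 5 RPKM, and further fits used median scaling, quantile normalization, a replicate block, a fit of the 2 compared groups alone, a stricter threshold (adjusted p of at most 0.001 and a log2 change of at least 1 in size), and leaving out each library. Leaving out Con replicate 3 and A10 replicate 3 together was chosen after seeing the data.

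Genes named are the 3 most abundant of each family, up to 5 called members per family, direction and comparison whose groups do not overlap, their near-identical partners, and up to 3 called genes per list and direction in HS compared with Con. Other called members are listed too. Gstt1 in A10 compared with Con, Gstp3, and the genes low in HS replicate 1 were chosen after their values were seen. The members and lists were chosen with earlier results of these data known. Positions and coding sequences came from GENCODE vM21 on GRCm38, promoters from RefSeq on GRCm38.p6.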

Additional observations from a re-analysis of the deposited data

How the results depend on the processing

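Of 51 calls of a member in a comparison, none changed direction under any alternative. All 51 were kept with a pseudocount of 0.1, 43 with no filter, 41 with median scaling, 43 with quantile normalization, 50 with the replicate block and 26 when only the 2 compared groups entered the fit. For HS compared with Con (6 members) the count was 3 with no filter, 3 with quantile normalization, 2 with the compared groups alone, 0 at the stricter threshold and 1 without Con replicate 3 and A10 replicate 3. For HS+A10 compared with A10 (14) it was 2 at the stricter threshold and 9 without those libraries. For A10 compared with Con (0) it was 1 with the compared groups alone. For HS+A10 compared with HS (1) it was 3 with median scaling, 2 with quantile normalization, 0 with the compared groups alone and 0 at the stricter threshold. For A10-FMT compared with HS (10) it was 6 with the compared groups alone and 0 at the stricter threshold, and for Con-FMT compared with HS (15) it was 4 and 1. For A10-FMT compared with Con-FMT (5) it was 3 with a mean of at least 5 RPKM, 3 with the compared groups alone and 0 at the stricter threshold. Single libraries were left out only for the comparisons that involve their own group. The counts then ran 1 to 7, 10 to 14, 0, 0 to 6, 6 to 12, 11 to 17 and 3 to 4 members in these comparisons in this order. For the interaction they were 0 to 2. With the replicate block the counts were 7, 14, 0, 1, 10, 14 and 5, and 0 for the interaction. The labels do not say whether the replicate numbers pair the samples. Of 45 same-numbered pairs of libraries, 12 had correlated deviations above 0.1 (range -0.13 to 0.26). Of the 18 libraries, 10 matched best with a library of their own number. A shared order or batch behind the numbers was not tested. The causes of these differences were not tested. The number of reads is not known, so no limit from depth can be given for low genes.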
